A study of Mus musculus with 6 samples.

Results

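The genes described here are 9 members of the regulator of G protein signalling (RGS) family: Rgs1, Rgs2, Rgs3, Rgs10, Rgs12, Rgs14, Rgs16, Rgs18 and Rgs19. They are 9 of 18193 genes named by a probe set with a single symbol, and every probe set carrying one of these symbols was taken, 21 in all. RNA came from the bone marrow of BL6 mice, sorted for granulocyte/macrophage progenitors (GMPs, the precursors of granulocytes and monocytes) by a gate that includes Kit and CD34 and leaves out Sca1-positive cells, and was hybridised to Affymetrix mouse arrays. The 6 arrays fall into 3 genotypes: mice lacking IRF4 and IRF8 (IRF4/8 DKO; a male and a female, both 16 weeks old), mice lacking IRF8 (IRF8 KO; a female of 12 weeks and a male of 22 weeks) and wild-type mice (WT; a male of 12 weeks and a female of 19 weeks). Both factors are DNA-binding proteins of the IRF family that act in blood cell development, and the series title names their joint deficiency in blood malignancies as its subject. Each array is labelled as a separate mouse, the knockout alleles are not described, and nothing in the labels says that the mutations are limited to GMPs. The members were proposed with results of these data known. Rgs1 was chosen by its measured fall in IRF4/8 DKO against WT, where it had already been listed, and the other 8 genes by family. Its values in that comparison, and in the comparison of both knockout genotypes with WT, are therefore a description without a test. Its comparisons of IRF8 KO with WT and with IRF4/8 DKO share arrays with that choice, so their p-values are not independent of it.

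RGS proteins end the signal of G protein-coupled receptors. A receptor loads the alpha subunit of a G protein with GTP, and the RGS domain speeds the hydrolysis of that GTP, so that alpha and beta-gamma subunits reunite and signalling stops. In blood cells the best-known receptors under this control are chemokine receptors, and RGS proteins limit how strongly and for how long a cell answers a chemokine. The small R4 subfamily, here Rgs1, Rgs2, Rgs3, Rgs16 and Rgs18, is little more than an RGS domain in most of its members, while Rgs10, Rgs12 and Rgs14 belong to the R12 subfamily and Rgs19 to the RZ subfamily.

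Values are intensities on a linear scale, as deposited, and fold changes are differences of log2(intensity + 10.5), which understate the change of low genes. All 10 GMP markers examined, among them Kit, Mpo and Elane, were above 10.5 on every array, and Cd34 read 590 and 509 in IRF4/8 DKO and 440 and 669 in IRF8 KO, against 1747 and 1401 in WT. Irf8 itself read between 2588 and 4778 by its first probe set, where knockout and WT arrays overlapped. By its second it read between 507 and 1900, with every knockout array above both WT arrays. The Irf4 probe sets read between 7.66 and 66.0. No source used here places these probe sets inside or outside the deleted exons, so they do not check the labels. The arrays of a genotype differed by more than 2-fold at 14.2% of 29783 tested probe sets in IRF4/8 DKO, 24.0% in IRF8 KO and 6.26% in WT.

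Rgs1, an R4 protein that restrains chemokine responses of lymphocytes, was the member with by far the widest range. Its probe set read 17.2 and 4.76 in IRF4/8 DKO, 75.2 and 7.59 in IRF8 KO, and 777 and 386 in WT. Every knockout array lay below both WT arrays, and the arrays of the knockout genotypes overlapped each other. Mean intensity was 10.95 ± 8.76 in IRF4/8 DKO, 41.4 ± 47.8 in IRF8 KO and 581.5 ± 276.6 in WT (SD, n = 2 each). The log2 fold change was -4.77 ± 0.73 (SE) for IRF4/8 DKO against WT, or 27.2-fold lower. For IRF8 KO against WT it was -3.83 ± 0.73, or 14.2-fold lower, which missed the threshold (limma adjusted p = 0.0988 over all probe sets). Both values rest on the same WT arrays, which had a part in the choice of Rgs1. The p-value for IRF8 KO is therefore not independent of that choice. The difference between IRF4/8 DKO and IRF8 KO was -0.94 ± 0.73 (limma adjusted p = 0.736), with a 95% interval of -2.59 to 0.71, so a further fall of several fold or a small rise would both lie inside it.

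Between arrays of the same sex the log2 difference of Rgs1 from WT was -4.83 (male) and -4.70 (female) in IRF4/8 DKO. In IRF8 KO it was -5.44 (male) and -2.21 (female), each resting on 1 array per side. The male IRF8 KO and WT mice were 22 and 12 weeks old and the female ones 12 and 19. Sex therefore cannot be told apart from age or from the single mouse, here or for the members below. Of the knockout values, 3 of 4 were near or below the pseudocount and the first IRF8 KO array was well above it. The size of the change moved with that setting: with pseudocounts of 3.9 and 39.23 the log2 fold change was -5.35 and -3.56 in IRF4/8 DKO, and -4.19 and -3.01 in IRF8 KO. In IRF8 KO the log2 fold change was -4.95 without replicate 1 and -2.70 without replicate 2, so its size depended strongly on which array was left in.

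**Figure D1:**
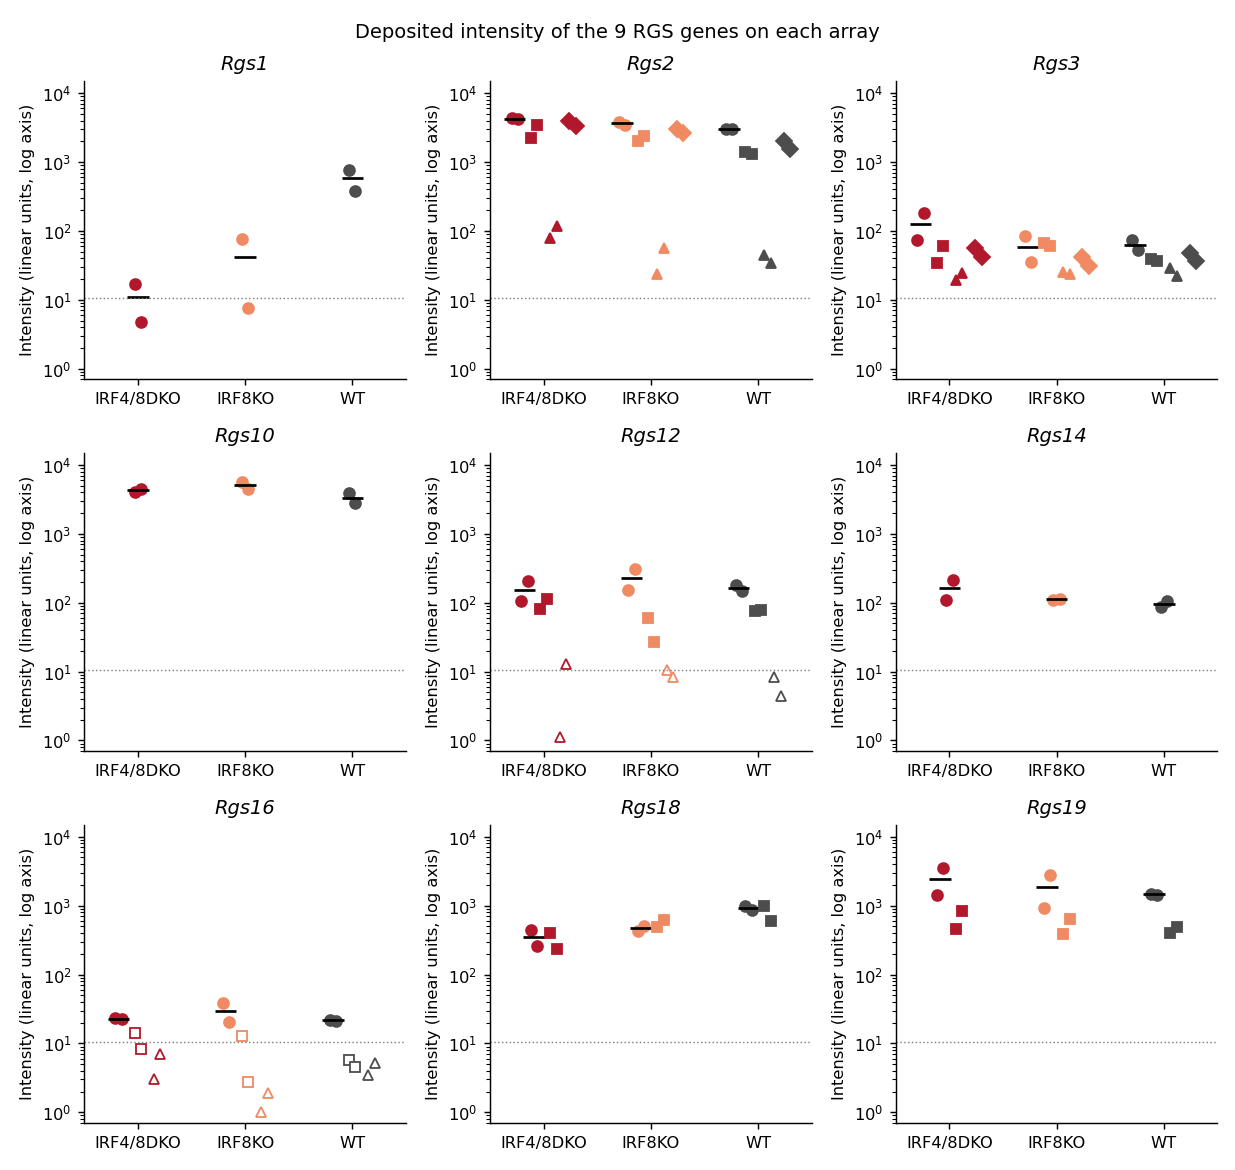
Deposited intensity (log axis) of each RGS gene on each array, for IRF4/8 DKO, IRF8 KO and WT. Symbols of 1 shape are 1 probe set, open symbols are probe sets below the filter on low values, black bars are the mean of the probe set that represents the gene, and the dotted line is the pseudocount of 10.5. Rgs1 is at 4.76 to 75.2 on the 4 knockout arrays and at 386 and 777 on the WT arrays, while the other genes stay within narrower ranges.

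Markers of several other cell types moved with Rgs1, and their part in its values was not tested. The 12 eosinophil, basophil and mast cell markers summed to 1732 and 1904 in IRF4/8 DKO and 5908 and 3468 in IRF8 KO, against 15550 and 10060 in WT. Of these 12, 11 in IRF4/8 DKO and 10 in IRF8 KO were below both WT arrays. The 5 stem cell markers with a probe set summed to 379 and 182 in IRF4/8 DKO and 361 and 270.0 in IRF8 KO, against 2564 and 1382 in WT, and all 5 were below both WT arrays in either knockout genotype. The 9 megakaryocyte and platelet markers summed to 406 and 1220 in IRF4/8 DKO and 1956 and 932 in IRF8 KO, against 5839 and 1498 in WT, with 7 and 4 of them below both WT arrays in IRF4/8 DKO and IRF8 KO. The 9 erythroid markers summed to 6212 and 4460 in IRF4/8 DKO and 4367 and 4072 in IRF8 KO, against 9122 and 6971 in WT, with 8 and 4 below both WT arrays. Most of each knockout sum was Tfrc, which overlapped WT. Tfrc read 5942 and 4271 in IRF4/8 DKO and 3336 and 3777 in IRF8 KO, against 3158 and 4677 in WT. The sum of the 8 monocyte and macrophage markers went the other way, at 19360 and 25710 in IRF4/8 DKO and 16520 and 18620 in IRF8 KO against 9559 and 9903 in WT. Of the 8, 7 were above both WT arrays in either knockout genotype. The exception was Ly86, at 11.0 and 3.52 in IRF4/8 DKO and 4.70 and 3.22 in IRF8 KO, against 625 and 575 in WT. Its log2 fold changes were -5.14 and -5.40 (limma adjusted p = 0.00781 and 0.00848). Fewer cells of a type and less RNA per cell cannot be told apart in such bulk samples. Below the pseudocount on both IRF4/8 DKO arrays were 2 of the 12 eosinophil, basophil and mast cell markers. So were 4 of the 9 megakaryocyte and platelet, 2 of the 9 erythroid and 0 of the 5 stem cell markers. In IRF8 KO these counts were 0, 1, 1 and 0, and in WT 1, 0, 0 and 0. Among those near or below it in IRF4/8 DKO were Pf4 (9.85 and 11.2), Gata1 (2.64 and 4.98) and Fcer1a (3.31 and 4.46). In the same order they read 798 and 394, 13.1 and 1.62, and 115 and 4.44 in IRF8 KO. In WT they read 2516 and 590, 282 and 61.1, and 211 and 210. Of the markers of all lists examined, only Pax5, a B and lymphoid progenitor marker, was below the pseudocount on every array.

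**Figure D2:**
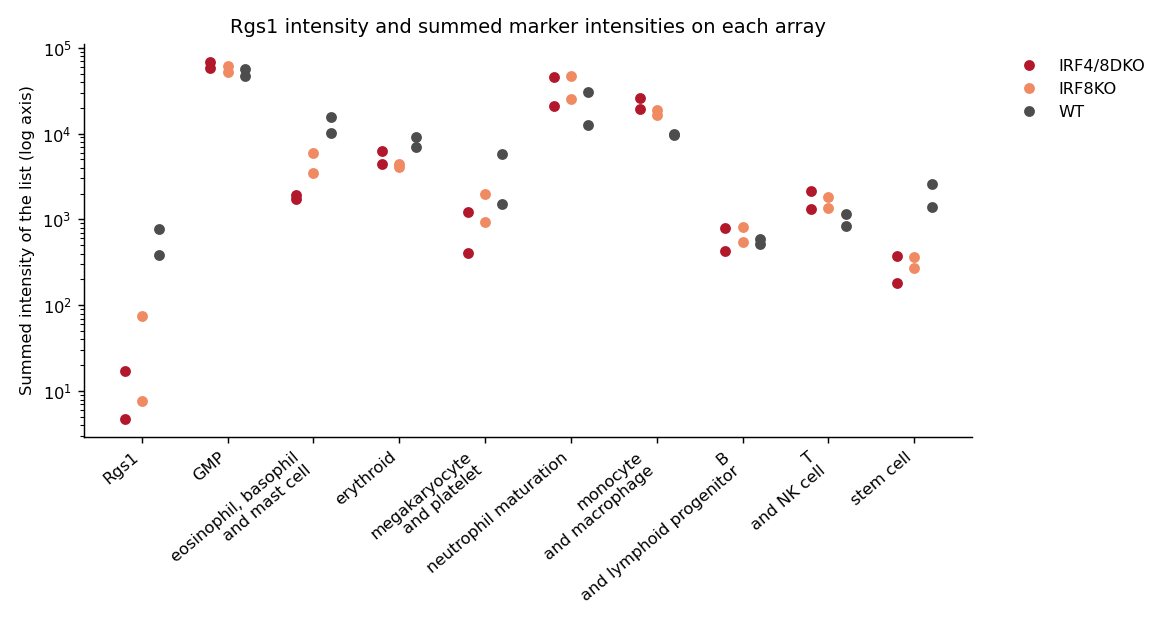
Intensity of Rgs1 and summed intensity of each cell type marker list (log axis) on each array, coloured by genotype. The eosinophil, basophil and mast cell sum and the stem cell sum lie below both WT arrays on all 4 knockout arrays, as Rgs1 does, whereas the GMP sums lie higher in IRF4/8 DKO than in WT and overlap between IRF8 KO and either of them (57410 and 68450 in IRF4/8 DKO, 52600 and 60670 in IRF8 KO, 46670 and 56750 in WT).

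Rgs18, an R4 protein of blood cells that is known for its action in megakaryocytes and platelets, also had lower values in the knockouts, but did not pass the test. Its first probe set read 449 and 259 in IRF4/8 DKO and 431 and 503 in IRF8 KO, against 1000 and 877 in WT. Both WT arrays were above all knockout arrays. The log2 fold change was -1.43 ± 0.42 (SE) in IRF4/8 DKO and -0.99 ± 0.42 in IRF8 KO (limma adjusted p = 0.298 and 0.353). Its second probe set read 398 and 236 in IRF4/8 DKO and 485 and 623 in IRF8 KO, against 999 and 594 in WT. Here the IRF8 KO and WT arrays overlapped, and the log2 fold changes were -1.30 ± 0.46 and -0.48 ± 0.46 (limma adjusted p = 0.405 and 0.689). Within each sex the first probe set gave -1.14 (male) and -1.72 (female) in IRF4/8 DKO, and -0.98 and -1.01 in IRF8 KO. The megakaryocyte and platelet sums given with Rgs1 were below both WT sums in IRF4/8 DKO, with 7 of 9 markers below both WT arrays, and overlapped WT in IRF8 KO, where all 6 tested markers had negative log2 fold changes (median -1.21). Their part in the Rgs18 values was not tested.

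Rgs2, an R4 protein that acts preferentially on G alpha q, had the opposite tendency. By the probe set that represents it, it read 4323 and 4149 in IRF4/8 DKO and 3852 and 3503 in IRF8 KO, against 3045 and 2995 in WT. The genotypes did not overlap, with IRF4/8 DKO highest and WT lowest. The log2 fold change was 0.49 ± 0.21 (SE) in IRF4/8 DKO and 0.28 ± 0.21 in IRF8 KO (limma adjusted p = 0.532 and 0.601).

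The other Rgs2 probe sets gave larger differences. The first of them read 2226 and 3394 in IRF4/8 DKO and 2010 and 2364 in IRF8 KO, against 1417 and 1288 in WT. Another read 3951 and 3290 in IRF4/8 DKO and 3002 and 2633 in IRF8 KO, against 2032 and 1563 in WT. Both placed all 4 knockout arrays above WT, with log2 fold changes of 1.02 ± 0.30 and 1.01 ± 0.26 in IRF4/8 DKO (limma adjusted p = 0.308 and 0.218). The last and dimmest read 79.4 and 119 in IRF4/8 DKO and 23.3 and 56.5 in IRF8 KO, against 44.9 and 34.1 in WT, so that only IRF4/8 DKO stood above WT there. These probe sets share a target and are not independent. For the representing probe set the within-sex differences of IRF4/8 DKO from WT were 0.50 (male) and 0.47 (female), and those of IRF8 KO 0.20 and 0.36.

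Rgs3 and Rgs16 complete the R4 members, and both were low. Rgs3, which acts on G alpha i and G alpha q, had 4 probe sets, all tested, that ranged from 19.6 to 180.1 over the arrays. The one that represents it read 73.5 and 180.1 in IRF4/8 DKO and 83.3 and 35.2 in IRF8 KO, against 74.7 and 52.2 in WT. All 3 genotypes overlapped, because the arrays of each knockout genotype were more than 2-fold apart. Its log2 fold changes were 0.79 ± 0.55 (SE) in IRF4/8 DKO and -0.16 ± 0.55 in IRF8 KO (limma adjusted p = 0.762 and 0.928). A second Rgs3 probe set read 33.8 and 59.96 in IRF4/8 DKO and 65.7 and 60.3 in IRF8 KO, against 38.7 and 36.9 in WT, and there it was IRF8 KO that lay above WT (log2 fold change 0.60 ± 0.41, limma adjusted p = 0.559).

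Rgs16, which is induced in activated lymphocytes, had 1 tested probe set, at 23.3 and 22.5 in IRF4/8 DKO and 38.5 and 20.6 in IRF8 KO, against 22.0 and 21.1 in WT. Apart from the first IRF8 KO array these values were nearly level. Its other 2 probe sets lay between 1.0 and 14.1 and did not pass the filter on low values. The tested Rgs16 probe set had a log2 fold change of 0.06 ± 0.39 in IRF4/8 DKO, with a 95% interval of -0.82 to 0.94, and of 0.29 ± 0.39 in IRF8 KO, with an interval of -0.60 to 1.17.

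**Figure D3:**
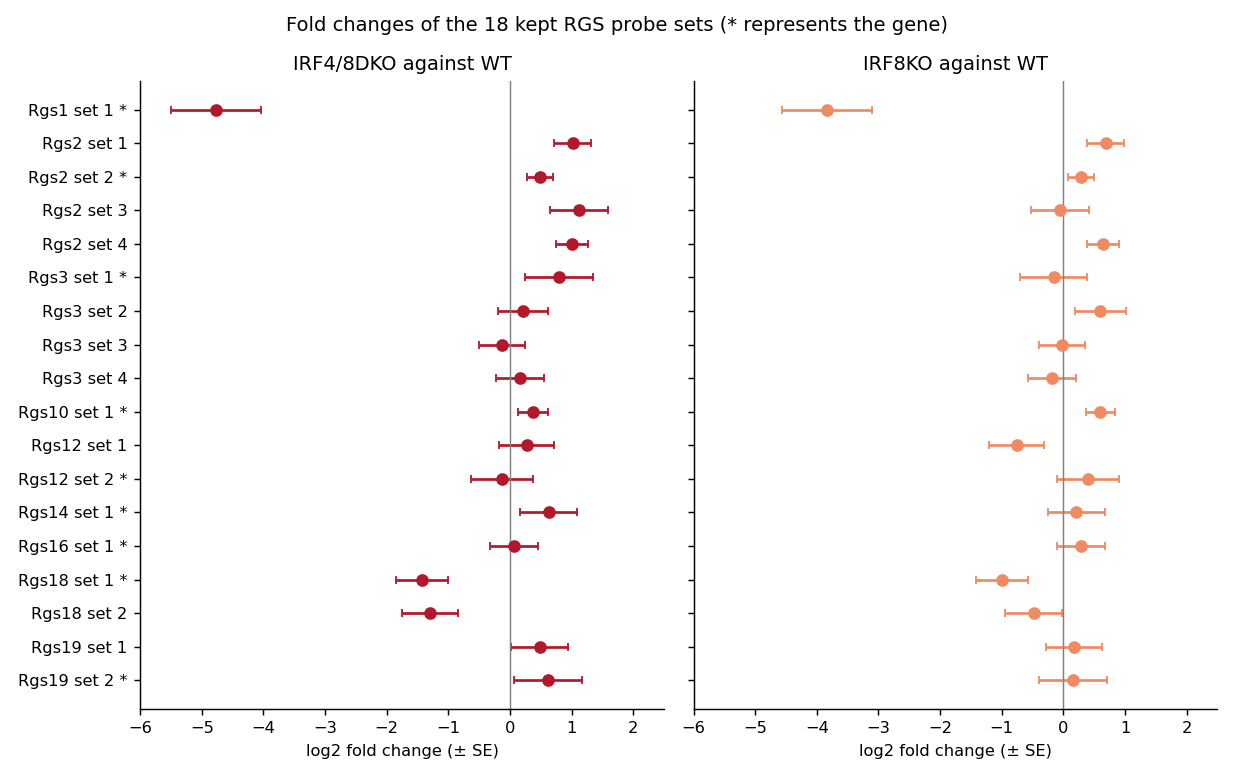
Log2 fold changes (horizontal axis, bars show the SE from limma, 2 arrays in each genotype) of the 18 tested RGS probe sets, for IRF4/8 DKO against WT at the left and IRF8 KO against WT at the right, which share the WT arrays. An asterisk marks the probe set that represents its gene. Rgs1 stands at -4.77 and -3.83, the other probe sets lie between -1.43 and 1.12 at the left and between -0.99 and 0.69 at the right.

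In the R12 subfamily, Rgs10, a small G alpha i regulator of immune cells, read 4080 and 4523 in IRF4/8 DKO and 5656 and 4464 in IRF8 KO, against 3921 and 2812 in WT. Each knockout array was above both WT arrays, although the lowest knockout and the highest WT value were close. The log2 fold change was 0.37 ± 0.24 (SE) in IRF4/8 DKO and 0.60 ± 0.24 in IRF8 KO (limma adjusted p = 0.741 and 0.336). Between male arrays these differences were 0.06 and 0.19, and between female arrays 0.68 and 1.01.

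Rgs12 and Rgs14 carry, beside the RGS domain, a motif that holds G alpha i in its GDP-bound form. Rgs14 read 109.7 and 214 in IRF4/8 DKO and 111 and 112 in IRF8 KO, against 86.0 and 106 in WT. The knockout arrays were again all above WT, by little except on the second IRF4/8 DKO array, and the log2 fold changes were 0.63 ± 0.46 and 0.21 ± 0.46 (limma adjusted p = 0.774 and 0.882).

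The Rgs12 probe sets disagreed with each other. The one that represents the gene read 106 and 204 in IRF4/8 DKO and 154 and 304 in IRF8 KO, against 180.3 and 146 in WT, and all genotypes overlapped. The second read 80.5 and 112 in IRF4/8 DKO and 60.9 and 27.2 in IRF8 KO, against 75.9 and 78.5 in WT, so that IRF8 KO lay below WT and IRF4/8 DKO above it. For IRF8 KO against WT they gave log2 fold changes of 0.40 ± 0.51 and -0.76 ± 0.45 (limma adjusted p = 0.778 and 0.509). Another Rgs12 probe set, at 1.11 to 12.8, did not pass the filter.

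Rgs19, also known as GAIP, is the RZ member and acts on G alpha i and G alpha z. It read 1449 and 3482 in IRF4/8 DKO and 933 and 2798 in IRF8 KO, against 1492 and 1428 in WT. One array of each knockout genotype was high and the other was near or below WT, so the genotypes overlapped. The log2 fold change was 0.62 ± 0.55 (SE) in IRF4/8 DKO and 0.15 ± 0.55 in IRF8 KO (limma adjusted p = 0.825 and 0.934). Its second probe set had the same high arrays, with 465 and 829 in IRF4/8 DKO and 382 and 649 in IRF8 KO, against 407 and 482 in WT. The summed level of the 9 neutrophil maturation markers was also higher on the second array of each genotype, WT included, at 20970 and 45720 in IRF4/8 DKO and 25520 and 47230 in IRF8 KO, against 12470 and 30220 in WT. Single markers differed. Mmp9, a secreted protease, read 38.1 and 164 in IRF4/8 DKO and 34.7 and 138 in IRF8 KO, against 42.8 and 46.1 in WT. Ltf read 340 and 2477 in IRF4/8 DKO and 921 and 3282 in IRF8 KO, against 195 and 1717 in WT, so that it was not level in WT as Rgs19 was. Cxcr2 read 182 and 160 in IRF4/8 DKO and 45.5 and 81.9 in IRF8 KO, against 216 and 140 in WT. The part of these markers in the Rgs19 values was not tested.

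Set against all probe sets, the members stood as follows. Of their 21 probe sets, 18 passed the filter on low values and were tested, with every gene represented. In IRF4/8 DKO against WT, 1 of the 18 lay past the adjusted threshold of 0.05, where 0.299% of all tested probe sets did (0.0907% higher, 0.208% lower). It was the Rgs1 probe set, and since Rgs1 was chosen for this comparison the count supports nothing. At an unadjusted p under 0.05 there were 7 of 18, Rgs1 included, where 9.05% of all were. These 7 came from only 3 genes, Rgs1, Rgs2 and Rgs18, and probe sets of 1 gene are not independent. In IRF8 KO against WT 0 of 18 passed by limma, where 0.0302% of all did (0.0101% higher, 0.0201% lower), and 4 had an unadjusted p under 0.05, Rgs1 included, where 13.5% of all had. In IRF4/8 DKO against IRF8 KO 0 of 18 passed by limma, where 0 of 29783 did, and 1 had an unadjusted p under 0.05, the dimmest Rgs2 probe set, where 8.52% of all had. With both knockout genotypes averaged against WT, again only the Rgs1 probe set passed, at a log2 fold change of -4.30 ± 0.63 (SE), where 0.601% of all did (0.188% higher, 0.413% lower). There 5 probe sets, from 4 genes, had an unadjusted p under 0.05, where 11.6% of all had. Apart from Rgs1, the 17 probe sets of the other 8 genes had limma adjusted p from 0.218 to 0.979 in IRF4/8 DKO against WT and from 0.332 to 0.986 in IRF8 KO against WT.

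The count of members whose arrays did not overlap was higher than the count past the threshold, as it was over all probe sets. In IRF4/8 DKO against WT 11 of 18, from 7 genes, did not overlap, 8 higher and 3 lower, where 43.6% of all probe sets did not (18.3% higher, 25.3% lower). In IRF8 KO against WT it was 9 of 18, also from 7 genes, 6 higher and 3 lower, where 45.7% did not (19.8% higher, 25.9% lower). With all 4 knockout arrays against both WT arrays it was 7 of 18, where 21.0% did not (8.51% higher, 12.5% lower). Of those 7, Rgs1 and 1 Rgs18 probe set were lower, and 3 Rgs2 probe sets, Rgs10 and Rgs14 were higher. Between IRF4/8 DKO and IRF8 KO it was 7 of 18, from 4 genes, 5 higher and 2 lower, where 36.6% did not (19.3% higher, 17.3% lower). Over the representing probe sets of the 9 genes the median log2 fold change was 0.37 in IRF4/8 DKO and 0.21 in IRF8 KO, against 0.027 and 0.041 over all 13267 genes with a tested probe set.

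Rgs1, Rgs2 and Rgs18 are neighbours. In the RefSeq gene table of assembly GRCm38.p6, Rgs2, Rgs13, Rgs1, Rgs21 and Rgs18 follow each other on chromosome 1 with no other protein-coding gene between them, flanked by Uchl5 and Brinp3. Within that stretch the values went different ways: Rgs1 was far below WT on the knockout arrays, Rgs18 was lower by less, and 3 of 4 Rgs2 probe sets were higher. Rgs13 was low throughout, at 13.5 and 2.38 in IRF4/8 DKO and 1.0 and 1.0 in IRF8 KO, against 9.39 and 8.77 in WT, and did not pass the filter. Rgs21 has no probe set under a single symbol in the table used. Start regions of 6 of the 9 genes, 10 in all, were in the RefSeq promoter table of GRCm38.p6 (250 bases before to 50 after the start). They were searched on both strands for GAAA followed after any 2 bases by GAAA, and for GGAA followed after any 2 bases by GAAA, which can overlap and are of the kind that IRF proteins and their complexes with PU.1 bind. None of the 10 held either, where 3.44% and 2.72% of all 32851 promoters did. Those of Rgs1, Rgs14 and Rgs18 were not in the table.

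The genes whose level ran most like that of Rgs1 over the 6 arrays were sought among 13258 genes by the root-mean-square difference of log2 profiles, each centred on its own mean. The nearest were Car2, an erythroid carbonic anhydrase (0.249), Tfr2, a transferrin receptor (0.274), Dach1, a transcription cofactor (0.287), Ctla2a, a protease inhibitor (0.328), Angpt1, a ligand of the receptor TIE2 (0.406), Ms4a2, an IgE receptor subunit (0.423), Rbpms, an RNA-binding protein (0.456), and Meis1, a homeodomain factor of stem cells (0.46). The median over all genes was 2.234, close to the 2.194 that a flat profile would give. All 8 had a first IRF8 KO array above the second, as Rgs1 did. They were chosen by likeness over these same arrays, so this shared order adds nothing to the likeness. Car2 read 143 and 56.1 in IRF4/8 DKO and 553 and 114 in IRF8 KO, against 4116 and 1773 in WT. Of the members, Rgs18 was the nearest to Rgs1 (1.648), and the others differed by 2.205 to 2.619. These are descriptions over 6 arrays.

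**Figure D4:**
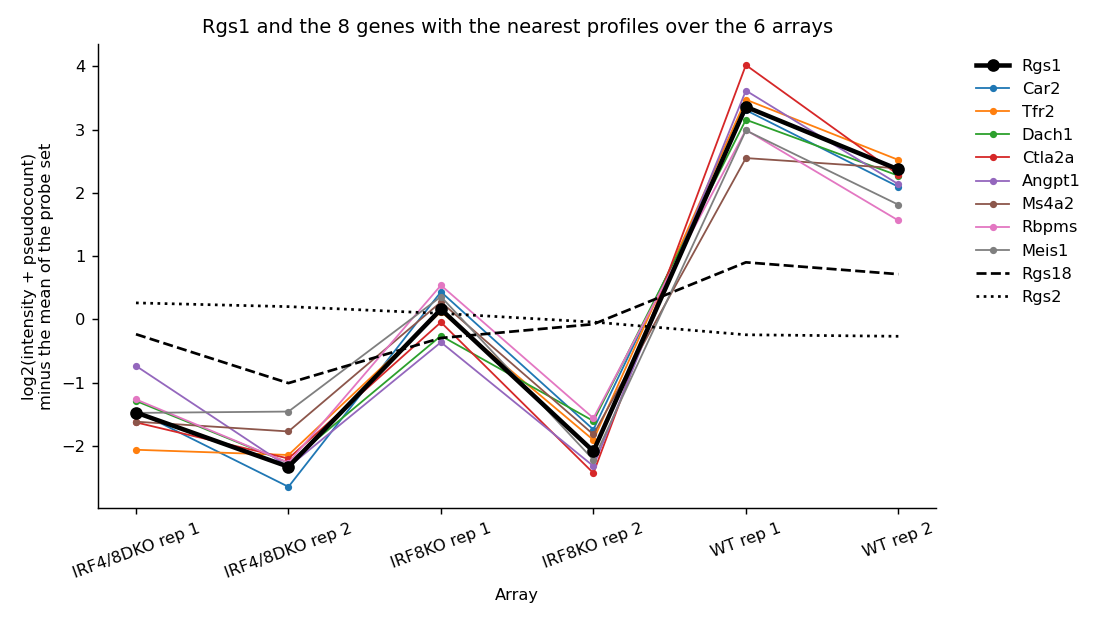
Log2(intensity + 10.5) minus the mean of each probe set (vertical axis) on the 6 arrays (horizontal axis), for Rgs1 (thick black line), the 8 genes with the nearest profiles (coloured lines), Rgs18 (dashed) and Rgs2 (dotted). Rgs1 and the 8 genes are high on both WT arrays and higher on the first than on the second IRF8 KO array, whereas Rgs18 varies less and Rgs2 runs the opposite way.

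The other RGS genes gave no call. Of 14 further family members and binding proteins, 12 had a probe set and 5 passed the filter: Rgs7bp, Rgs8, Rgs9, Rgs11 and Rgs20. Their 7 tested probe sets had limma adjusted p of 0.127 or more in every comparison, and the 18 untested ones lay between 1.0 and 53.9. Rgs20, an RZ gene, had 3 tested probe sets that disagreed. The one that represents it read 41.1 and 1.49 in IRF4/8 DKO and 7.44 and 10.3 in IRF8 KO, against 105 and 85.3 in WT, with log2 fold changes of -2.08 ± 0.62 and -2.44 ± 0.62 (limma adjusted p = 0.311 and 0.163). The others gave -0.20 and -0.05 in IRF4/8 DKO, and -0.40 and -0.99 in IRF8 KO (limma adjusted p of 0.416 or more). Among the substrates of RGS proteins, 0 of 12 tested G alpha genes passed in any of the 4 comparisons by limma. Of 21 tested chemoattractant and related receptor genes, Ccr1 and Ccr2 rose and F2r, the thrombin receptor, fell in IRF4/8 DKO against WT by 5.43 ± 0.56, 3.13 ± 0.38 and -5.47 ± 0.74 on the log2 scale (SE; limma adjusted p = 0.0214, 0.0285 and 0.0327). None of the 21 passed in IRF8 KO against WT, where the same genes differed by 4.18, 2.79 and -2.72 (limma adjusted p = 0.0509, 0.0509 and 0.179).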

How the data were processed

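Expression was measured on 6 arrays, 2 per genotype. The deposited values are linear intensities. The authors made them with dChip 1.3 (normalization, then its PM/MM difference model), as the series' design text says, and no source here states further filters. The 45037 probe sets ranged from 0.69 to 16563.28, and the number of arrays limits the precision. Symbols came from GEO's platform annotation: 34945 probe sets had 1 symbol, 932 several and 9160 none, and only the first kind was named. Values were transformed to log2(value + 10.5), the 25th percentile of all values. Probe sets above the 40th percentile of their array on at least 2 arrays were kept (29783). Among a gene's kept probe sets, the one of highest mean log2 value represents it. One limma model (limma 3.58.1, R 4.3.3) held all genotypes (variance trend, no covariates), with Benjamini-Hochberg adjustment over all kept probe sets. The fit, tested on simulated data, had 3 residual and 5.84 prior degrees of freedom; p-values measure the spread between these arrays only. Named genes are all members, the 8 nearest Rgs1 profiles, and pathway genes past the threshold or among the 3 lowest adjusted p of their list. Members and lists were chosen with earlier results of these data known. Alternatives varied the pseudocount, filter, normalization, variance model, samples, covariates and arrays.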

Additional observations from a re-analysis of the deposited data

Results flagged for a closer look

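Some members differed from their comparison group in opposite directions in the 2 sexes. Of 27 comparisons of a representing probe set, 11 had opposite signs, and 4 of these were over 0.5 on the log2 scale in both sexes, a limit chosen after the values were seen. Each rests on 1 array per sex and genotype, so the difference between sexes was not tested. Ages differed too. In IRF4/8 DKO, IRF8 KO and WT the males were 16, 22 and 12 weeks old and the females 16, 12 and 19. Sex therefore cannot be told apart from age or from the single mouse. For Rgs1, IRF4/8 DKO minus IRF8 KO was 0.61 (male) and -2.49 (female). For Rgs3, IRF8 KO minus WT was -0.90 (male) and 0.58 (female). For Rgs19, IRF8 KO minus WT was 0.90 (male) and -0.61 (female), and IRF4/8 DKO minus IRF8 KO was -0.94 (male) and 1.89 (female). Groups of 2 arrays are too small for a test of single outlying arrays.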

How the results depend on the processing

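Counts are given here only for fits with no array left out. A left-out array leaves its genotype with 1 array, so such fits cannot show whether a call holds. Only their effect sizes are given. In IRF4/8 DKO against WT the count of member probe sets past the threshold was 1 (Rgs1). It became 0 with the pseudocount of 3.9, without the filter, without a variance trend and with sex as a block. Calls over all probe sets fell there too, from 89 to 63, 13, 27 and 0 in that order, so the loss was not particular to Rgs1. With 1 array left out the Rgs1 log2 fold change in this comparison lay between -5.26 and -4.27. In IRF8 KO against WT the count was 0. With no array left out it became 1 (Rgs1) with age as a covariate (limma adjusted p = 0.0218) or the replicate block (0.0235). Calls over all probe sets rose under these settings from 9 to 136 and 209. With 1 array left out the Rgs1 log2 fold change in IRF8 KO against WT lay between -4.95 and -2.70. With both knockout genotypes against WT and no array left out, the count was 1. It became 0 without the filter, without a variance trend and with sex as a block. Over all probe sets the calls fell there from 56 higher and 123 lower to 26 and 44, 23 and 42, and 5 and 3, in that order. With 1 array left out the Rgs1 log2 fold change in this comparison lay between -4.86 and -3.74. In IRF4/8 DKO against IRF8 KO the count was 0 under every alternative run with no array left out. The cause of these shifts was not tested. Where an array was left out, the lone array of its genotype was assumed to vary like the others. Same-numbered arrays share only a number: their deviations correlated at 0.0411 to 0.2114 between genotypes, and the replicate block raised the count of all calls to 216 (from 89) in IRF4/8 DKO against WT and to 209 (from 9) in IRF8 KO against WT. Rgs1 stayed negative against WT under every alternative, from -5.35 to -3.56 in IRF4/8 DKO and from -4.95 to -2.70 in IRF8 KO. It was chosen by its fall, and every knockout array lay below both WT arrays, so this sign adds no support. With 1 array left out the sign changed for Rgs12 and Rgs19 in IRF4/8 DKO against WT (-0.56 to 0.31 and -0.01 to 1.25), for Rgs3, Rgs12, Rgs16 and Rgs19 in IRF8 KO against WT (-0.68 to 0.36, -0.07 to 0.87, -0.04 to 0.61 and -0.64 to 0.93), for Rgs1, Rgs14, Rgs16 and Rgs19 in IRF4/8 DKO against IRF8 KO (-2.06 to 0.18, -0.02 to 0.88, -0.55 to 0.10 and -0.31 to 1.26), and for Rgs12 and Rgs19 with both knockout genotypes against WT (-0.10 to 0.37 and -0.01 to 0.78); none of these passed the test. Fitting only the genotypes compared was not run for both knockout genotypes against WT, where it is the same fit.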

Other observations

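A few signalling genes around the RGS proteins had values like those of Rgs1. Gnb4, a G protein beta subunit, read 24.3 and 22.9 in IRF4/8 DKO and 65.6 and 10.3 in IRF8 KO, against 654 and 259 in WT. It fell with both knockout genotypes averaged against WT (log2 fold change -3.52 ± 0.58 SE, limma adjusted p = 0.0391) and did not pass in IRF4/8 DKO or IRF8 KO alone (limma adjusted p = 0.085 and 0.0996). Adcy6, an adenylyl cyclase, read 14.3 and 6.23 in IRF4/8 DKO and 28.6 and 5.07 in IRF8 KO, against 351 and 120.0 in WT, and fell in the same averaged comparison (-3.28 ± 0.53 SE, limma adjusted p = 0.0381). In both genes the first IRF8 KO array was above the second, as for Rgs1. They were the only called genes among 14 tested beta and gamma subunits and 10 tested effectors in that comparison, where 0.601% of all probe sets passed. A Ptger3 probe set, for a prostaglandin E receptor, fell there too (-1.97 ± 0.33 SE, limma adjusted p = 0.0449), while the probe set that represents the gene did not pass (-2.89 ± 0.79 SE, limma adjusted p = 0.178).

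Gpsm3, which binds G alpha i and beta subunits, split the arrays differently. It read 497 and 3349 in IRF4/8 DKO and 530.3 and 1906 in IRF8 KO, against 449 and 488 in WT, so that the second array of each knockout genotype was high, as for Rgs19. The IRF4/8 DKO array was from a female and the IRF8 KO array from a male, and no comparison of Gpsm3 passed (limma adjusted p = 0.571 or more).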
